A study of Canis lupus familiaris with 4 samples.

Results

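This account compares 2 of the 4 expression arrays of a study in MDCKII, a long-established line of canine kidney epithelium. One array is labelled HIF1A knockdown (KD) in normoxia and the other is labelled HIF1A wild type (WT) in hypoxia. They are identified by their titles. The arrays labelled WT normoxia and KD hypoxia show where each gene lay in the rest of the series, and they also enter the intensity floor, the choice of probe set and the model over all arrays. All cultures were kept for 24 h in normoxia and then for 24 h in the labelled oxygen condition, and 100 ng of total RNA was labelled per array, per the labels. How HIF1A was knocked down, whether the knockdown line was 1 clone, and the oxygen level are not stated in the sources used here. Genotype and oxygen label both differ between these arrays, so what belongs to either one cannot be told apart from this pair by itself. Each label has 1 array, so no difference between the pair has a replicate check.

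HIF1A encodes the oxygen-regulated alpha subunit of hypoxia-inducible factor, a transcription factor that pairs with ARNT. In normal oxygen, prolyl hydroxylases of the EGLN family mark the HIF1A protein for destruction through VHL, and in low oxygen the protein escapes and turns on genes of glycolysis, acid handling, blood vessel growth and matrix hydroxylation. The control by oxygen acts mainly on the protein, which arrays do not measure, whereas a knockdown by RNA interference lowers the mRNA.

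Values are array intensities on a linear scale, and differences are log2(intensity + 16) in the array labelled KD normoxia minus that in the array labelled WT hypoxia, so that 1 is a 2-fold difference and a positive value means higher in KD normoxia. A gene counted if it reached an intensity of 46.3, the median of all values, in at least 1 of the 4 arrays. This floor left 9834 genes, of which 8579 reached it in both compared arrays. Where a gene was below the floor in 1 of the pair, intensities are given and the size of the difference is not measured. The median intensity was 45.9 in the array labelled KD normoxia and 47.0 in the array labelled WT hypoxia, and the pair correlated across probe sets with r = 0.982. Epithelial markers were present in both arrays, with EPCAM at 9864 and 11210, KRT18 at 12783 and 14355 and KRT8 at 2029 and 2094. The probe sets of CDH1, PAX2, PAX8 and AQP2, which also mark kidney epithelium, were below the floor in all 4 arrays. Of the markers of other cell types, 2 of 11 for fibroblasts and 5 of 10 for endothelium reached the floor in both of the pair, with endothelial FLT1 at 1490 and 1203. For immune cells 3 of 11 reached it in each array, and 2 of them, CD4 and CD68, in both.

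HIF1A mRNA did not follow the knockdown label. The intensity of HIF1A was 3435 in the array labelled KD normoxia and 675 in the array labelled WT hypoxia, a difference of 2.32. In the remaining arrays it was 3651 under the label WT normoxia and 625 under the label KD hypoxia. Both arrays labelled normoxia were therefore high and both labelled hypoxia were low, with no overlap. Another probe set of the gene read 155 in KD normoxia and, below the floor, 27.6 in WT hypoxia, while the remaining one lay below the floor in all 4 arrays. The array labelled KD thus held the more HIF1A mRNA of the pair, and every direction that follows is that of the labels only.

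Of the other HIF subunits, ARNT and ARNT2 did not share this difference. ARNT, the partner of HIF1A, read 107 and 86.5 (0.27), and ARNT2 read 70.0 and 64.2 (0.10). EPAS1, which encodes the HIF-2 alpha subunit, was below the floor in both arrays of the pair at 33.5 and 39.2. HIF3A was also below it in both, at 46.04 and 25.8, so the differences of EPAS1 and HIF3A are not measured.

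Known HIF target genes were mostly higher in the array labelled KD normoxia. ADM, a vasodilator peptide, read 563 in the array labelled WT normoxia, 4486 in KD normoxia, 941 in WT hypoxia and 2017 in KD hypoxia, a difference of 2.23 between the compared pair. BNIP3L, a mitophagy receptor, read 641, 2029, 378 and 823 in the same order (2.38). ANKRD37, an ankyrin repeat protein, read 160, 766, 198 and 688 (1.87). For ADM and BNIP3L the array labelled KD normoxia stood above the other 3, while for ANKRD37 both arrays labelled KD were high and both labelled WT were low.

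Further HIF targets at least 2-fold higher in KD normoxia had varied roles. P4HA1, a collagen prolyl hydroxylase, read 335, 1164, 347 and 649 in the order given above (1.70). AK4, a mitochondrial adenylate kinase, was higher by 1.17, with 2657 against 1170. INSIG2, which retains the sterol sensor complex in the endoplasmic reticulum, was higher by 1.11. ZNF395, a DNA-binding protein, was higher by 1.58, and ceruloplasmin (CP), a copper-carrying ferroxidase, by 1.91. INSIG2 and CP shared 1 order of the 4 arrays, with WT normoxia above KD hypoxia. CP read 1334 in WT normoxia, 1813 in KD normoxia, 470 in WT hypoxia and 680 in KD hypoxia.

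Not all HIF targets differed. VEGFA, the vascular growth factor, read 2428 and 2281 (0.09) and CA9, a carbonic anhydrase widely used as a hypoxia marker, read 110 and 108 (0.03). Another VEGFA probe set read 81.7 in KD normoxia and, below the floor, 25.4 in WT hypoxia. LOXL2, a lysyl oxidase, was lower by 0.63 and BHLHE41, a clock repressor, by 0.44. EPO, HMOX1 and CA12 were below the floor in all 4 arrays. BNIP3 read 46.6 in KD normoxia, just above the floor, and 23.5 in WT hypoxia, below it, so its difference is not measured.

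Over the list of 58 other HIF targets, 52 were measured, with or without reaching the floor. Of these, 40 were higher and 12 lower in the array labelled KD normoxia (median 0.22). Over all 15115 genes, likewise without a floor, 7024 were higher and 7962 lower (median -0.02). Over the 9834 genes that reached the floor, 4547 were higher and 5287 lower (median -0.03). Of these 52 genes, 40 reached the floor in both arrays. At least 2-fold higher were 8 of the 42 that reached the floor anywhere and 0 were at least 2-fold lower, where 1.65% of all genes were higher and 0.997% lower by that much. The array labelled KD normoxia was the highest of the 4 for 24 of the 42, against 26.4% of all genes.

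Among the sensors of oxygen, EGLN1, the main HIF prolyl hydroxylase, read 333 in WT normoxia, 686 in KD normoxia, 343 in WT hypoxia and 369 in KD hypoxia (0.97). EGLN3, an inducible member of that family, read 101 in KD normoxia and 25.6 in WT hypoxia, where it was below the floor. EGLN2 (0.11), VHL (0.18) and HIF1AN, the asparagine hydroxylase that inhibits HIF (0.22), were close in the pair. Of 11 measured sensors and regulators 8 were higher and 3 lower (median 0.18).

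**Figure D1:**
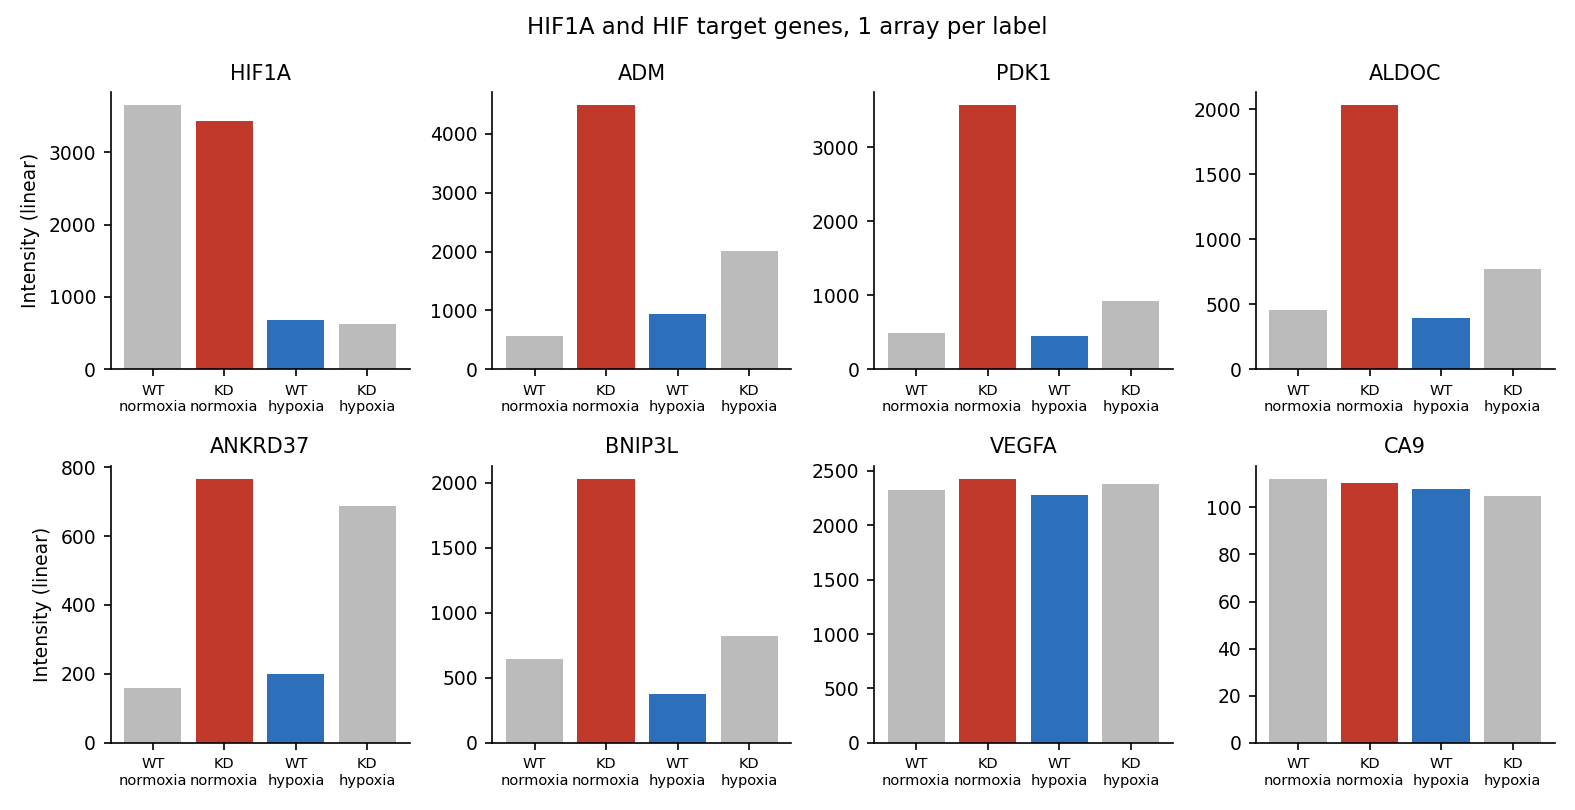
Linear intensity (y axis, from 0) of HIF1A and 7 HIF target genes in each of the 4 arrays (x axis, by label), 1 bar per array with no error because each label has 1 array; red and blue bars are the compared pair. HIF1A is high in both arrays labelled normoxia, whereas ADM, PDK1, ALDOC, ANKRD37 and BNIP3L are highest in the array labelled KD normoxia, and VEGFA and CA9 are nearly level. Each gene is shown by its probe set of highest mean.

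Genes of glycolysis, which splits glucose into pyruvate and lactate, were mostly higher in the array labelled KD normoxia as well. PDK1, a kinase that closes the entry of pyruvate into mitochondria, read 488 in WT normoxia, 3568 in KD normoxia, 455 in WT hypoxia and 927 in KD hypoxia (2.93). ALDOC, an aldolase, read 453, 2031, 394 and 773 (2.32), and PFKL, the liver phosphofructokinase, read 765, 2143, 647 and 1161 (1.70). In all of them the array labelled KD normoxia was highest, KD hypoxia second, and WT normoxia lay nearer to WT hypoxia than to KD normoxia.

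GPI, which isomerises glucose 6-phosphate, was higher by 1.63, GAPDH by 1.61, PFKFB3, which makes the activator of phosphofructokinase, by 1.47, PGK1 by 1.17 and ALDOA by 1.05. GAPDH had only 1 probe set, which read 734 in KD normoxia and 231 in WT hypoxia. A second PFKFB3 probe set was higher by 1.385, while a dimmer one, at 69.9 and 78.7, differed by -0.14. The lactate exporter SLC16A3 read 137 in KD normoxia and 42.5 in WT hypoxia, below the floor in the latter. The glucose transporter SLC2A1 was higher by only 0.27, and the hexokinases HK1 (-0.02) and HK2 (0.14) were nearly level in their brightest probe sets. Another HK1 probe set, at 126 and 71.2, was higher by 0.71. Another HK2 probe set read 89.5 in KD normoxia and, below the floor, 44.4 in WT hypoxia. Of 26 measured genes of this list 21 were higher and 5 lower (median 0.46), and 21 reached the floor in both arrays. At least 2-fold higher were 9 of the 23 that reached the floor anywhere, against 1.65% of all genes. By that much 0 were lower, against 0.997%. These 9 included SLC16A3, and 8 of the 21 above the floor in both arrays were at least 2-fold higher. For 19 of these 23 the array labelled KD normoxia was the highest of the 4, and for 15 the array labelled WT hypoxia was the lowest, against 26.4% and 23.8% of all genes.

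The size of the glycolytic difference varied with the probe set. ENO1, enolase, has 4 probe sets above the floor, whose differences from the brightest to the dimmest were 0.40, 0.96, 1.54 and 2.30. PGK1 gave 1.17 in a probe set that read 9891 in KD normoxia and 2.04 in one that read 494. LDHA, lactate dehydrogenase A, gave 0.46 at 15046 and 0.86 at 10367. TPI1 gave 0.60 and 1.26, and PGAM1 0.28 and 0.71, again with the dimmer probe set second. Of the 8 glycolysis genes with several probe sets whose brightest one read at least 4000 in KD normoxia, 7 had a larger difference in every dimmer probe set, PFKFB3 being the exception. Of the 4 dimmer glycolysis genes with several probe sets this held for 2, HK1 and ENO2, and not for PFKL and PDK3. The highest value of any probe set was 19821 in KD normoxia and 20037 in WT hypoxia. This comparison of probe sets was chosen after the values were seen, and the part of brightness in it was not tested. One gene is represented here by its brightest probe set, so the list median rests on the smaller values for these genes.

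**Figure D2:**
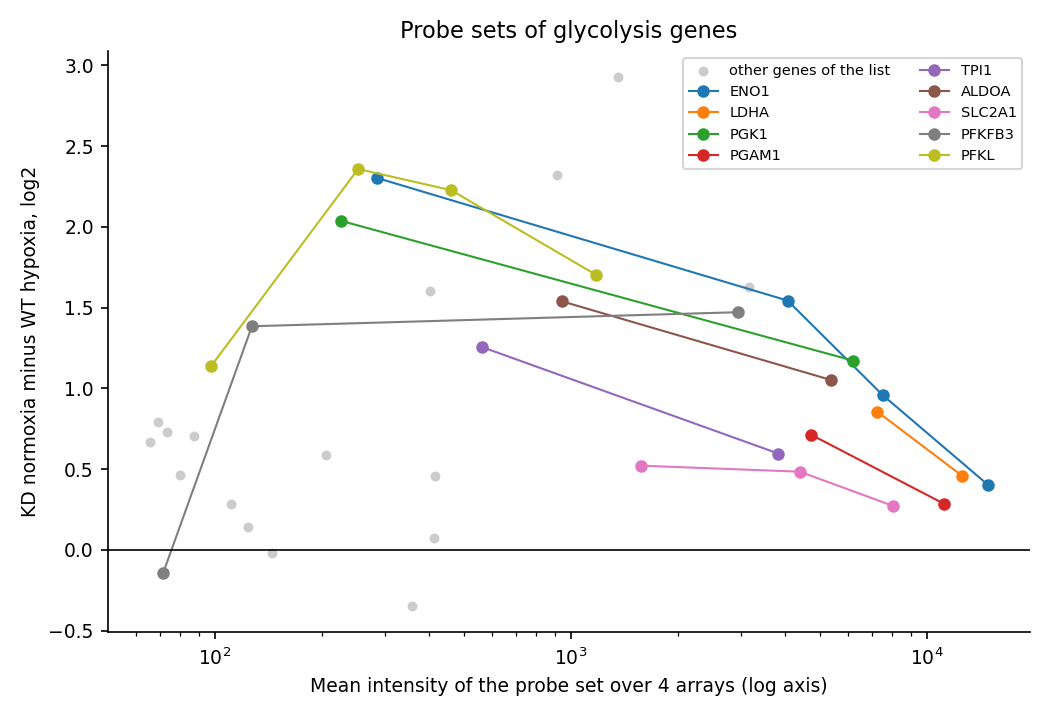
Difference between the compared pair in log2 (y axis) for every probe set of a glycolysis gene above the floor in both arrays, against its mean intensity over 4 arrays (log x axis). Lines join probe sets of 1 gene, and for ENO1, PGK1, LDHA, TPI1, PGAM1, ALDOA and SLC2A1 the brightest probe set has the smallest difference.

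Across the array, the label KD normoxia went with a value at least 2-fold above WT hypoxia for 162 genes and at least 2-fold below it for 98, together 2.64% of 9834. Of these, 111 and 64 reached the floor in both arrays. The other pairs of arrays gave from 86 to 176 genes at that threshold, and all but the pair of WT normoxia and KD hypoxia share an array with this one. Other probe sets of the same genes, where above the floor in both arrays, had the same sign in 86 of 97 cases, and 37 of them also reached 2-fold.

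Among genes above the floor in both arrays, a collagenase and a chemokine had the largest positive differences. MMP13, a collagenase, read 598 in WT normoxia, 1242 in KD normoxia, 58.2 in WT hypoxia and 59.1 in KD hypoxia (4.08). CCL2, which attracts monocytes, read 895, 1025, 98.2 and 117 (3.19), and DSG3, a desmosomal cadherin, read 503, 542, 60.8 and 57.3 (2.86). Like HIF1A, these 3 genes were high in both arrays labelled normoxia and low in both labelled hypoxia.

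SNAI2, a repressor of epithelial genes, was higher in KD normoxia by 2.87 and the calcium-binding proteins S100A4 by 2.82 and S100A2 by 2.54. The carbonic anhydrase CA14 was higher by 2.71, the exonuclease ISG20 by 2.55, TMEFF2, a membrane protein with an EGF-like domain, by 2.49, and IGFBP4, which binds insulin-like growth factors, by 2.33. Another IGFBP4 probe set, at 152 and 106, was higher by 0.46. The dimmer TMEFF2 probe sets were higher by 2.35 and by only 0.39. The metalloreductases STEAP2 (582 and 43.9) and STEAP1 (206 and 19.9) were above the floor only in KD normoxia of the pair in their brightest probe sets, as were BCAR3 (197 and 42.7) and ABCA8 (166 and 34.0). Other probe sets above the floor in both arrays were higher by 0.64 for STEAP2 and by 0.44 for BCAR3.

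Lower in the array labelled KD normoxia was IDO1, which starts tryptophan breakdown, with 2461 in WT normoxia, 829 in KD normoxia, 10053 in WT hypoxia and 6471 in KD hypoxia (-3.58). CXCL10, an interferon-induced chemokine, read 486, 294, 3304 and 2013 (-3.42), and the matrix protein EFEMP1 read 141, 84.2, 671 and 604 (-2.78). In all 3 genes the arrays labelled hypoxia exceeded those labelled normoxia. GCLC, which starts glutathione synthesis, read 1068, 336, 2316 and 821 (-2.73), lowest in KD normoxia and highest in WT hypoxia. The metallothionein MT1E (-2.09), ZFAND2A, an arsenite-inducible zinc finger protein (-2.06), and ZNRF3, a ubiquitin ligase that dampens Wnt signalling (-1.46), were also lower, as were the glucuronosyltransferase UGT1A6 (-1.51), DLA-DQB1 (-1.50), FSD1L (-1.46) and SCUBE3 (-1.46). Another UGT1A6 probe set differed by 0.01. For FSD1L a dimmer probe set, at 64.8 and 130, differed by -0.85. For SCUBE3 a dimmer probe set lay in the opposite direction, at 63.5 in KD normoxia and, below the floor, 38.7 in WT hypoxia. SPINK5, a serine protease inhibitor of epithelia, read 33.0 in KD normoxia, below the floor, and 3751 in WT hypoxia. CALHM2 (40.7 and 160) and ADAMDEC1 (30.1 and 121) were likewise above the floor only in WT hypoxia of the pair in their brightest probe sets. Another CALHM2 probe set was above the floor in both arrays, at 53.5 and 96.8 (-0.70).

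**Figure D3:**
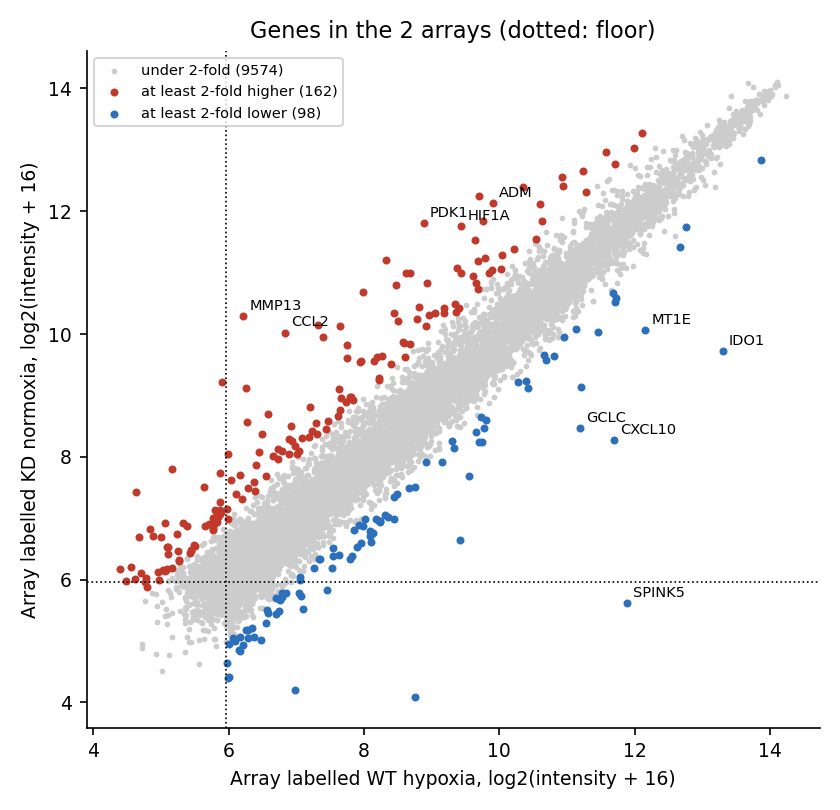
Each point is 1 of 9834 genes, with log2(intensity + 16) in the array labelled WT hypoxia on the x axis and in the array labelled KD normoxia on the y axis; red marks the 162 genes at least 2-fold higher in KD normoxia, blue the 98 at least 2-fold lower, and dotted lines the floor. HIF1A, ADM and PDK1 lie above the cloud and IDO1, CXCL10, GCLC and SPINK5 below it.

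The arrays labelled WT normoxia and KD hypoxia, which the contrast does not use, show which label each gene followed. For each of the 175 genes at least 2-fold different and above the floor in both compared arrays, each of these 2 arrays was placed on the side of KD normoxia or of WT hypoxia, divided at the mean of the pair. A gene followed the oxygen label when WT normoxia lay with KD normoxia and KD hypoxia with WT hypoxia, and the genotype label in the reverse case. Otherwise one of the compared arrays stood apart from the other 3.

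Of the 111 higher genes, 37 (33.3%) followed the oxygen label, 28 (25.2%) the genotype label, in 35 (31.5%) KD normoxia stood apart and in 11 (9.91%) WT hypoxia stood apart. Among the 64 lower genes these numbers were 35 (54.7%), 14 (21.9%), 8 (12.5%) and 7 (10.9%). Over all 8579 genes above the floor in both arrays the shares were 28.0%, 26.3%, 26.6% and 19.2%. These shares were not tested against each other.

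Among the glycolysis genes and HIF targets, 16 were at least 2-fold higher and above the floor in both arrays. Of these 16, 13 were among the 35 genes for which KD normoxia stood apart, 2 (ANKRD37 and P4HA1) followed the genotype label and 1 (CP) the oxygen label. A stricter measure takes whichever of the 4 places leaves the widest gap between its sides and asks for at least 2-fold. It gave a place to 48 of the 175 genes and moved GCLC, IDO1 and SNAI2 to another place than the division at the mean. By it KD normoxia stood apart upward for 14 genes, 8 of them in these lists (ADM, ALDOC, BNIP3L, GAPDH, GPI, PDK1, PFKFB3 and ZNF395). The oxygen label was followed by 15 higher genes, 0 of them in these lists, among them HIF1A, CCL2, DSG3, MMP13, S100A4, IGFBP4 and the laminin receptor ITGA6, and by 6 lower genes, among them CXCL10 and EFEMP1. KD normoxia stood apart downward for GCLC, IDO1 and ZFAND2A. A gene can exceed 2-fold at more than 1 place, and only the widest gap was counted. IDO1 also had a gap of 1.39 by the oxygen label.

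Few genes had their widest gap, of at least 2-fold, by the genotype label. They were ANKRD37, FGFBP1, TMEFF2 and 1 gene without a given name upward, and MT1E downward. ADM also had both arrays labelled KD above both labelled WT, by at least 1.09. Its gap with KD normoxia apart was wider, so it is not counted here. TMEFF2 read 322 in WT normoxia, 1107 in KD normoxia, 183 in WT hypoxia and 700 in KD hypoxia, and MT1E read 4515, 1051, 4530 and 1444. The TMEFF2 probe set with the difference of 0.39 gave 220 for WT normoxia and 216 for WT hypoxia. For KD normoxia it gave 288 and for KD hypoxia 274, so its gap by the genotype label was under 2-fold. In the TMEFF2 probe set with the difference of 2.35, WT normoxia lay at 233 and KD hypoxia at 473. CCL17, a chemokine (2.03), and CD38, which degrades NAD (2.06), followed the genotype label with gaps under 2-fold. WT hypoxia stood apart by such a gap for EMP1 (another probe set differed by 0.14), FAM107B and SNAI2, all lower there, and for POLR3G and ATG4B, both higher there. A second POLR3G probe set differed in the opposite direction, by 1.05 against -1.86. FBLIM1 (1.61) and IQGAP1 (1.42) were lower there with smaller gaps, and the median over the IQGAP1 probe sets was -0.22. HIF1A and the glycolysis genes thus differed between the same 2 arrays but were placed differently by the other 2.

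Whether the labels of the compared arrays are exchanged was not tested. If the labels changed places, every difference above would keep its size and would read as WT hypoxia minus KD normoxia, and the names of the places would change. The 37 higher and 35 lower genes given as following the oxygen label, HIF1A among them, would follow the genotype label (33.3% and 54.7%). The 28 and 14 given under the genotype label would follow the oxygen label (25.2% and 21.9%). The genes for which KD normoxia stood apart would be those for which WT hypoxia did, and the reverse.

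**Figure D4:**
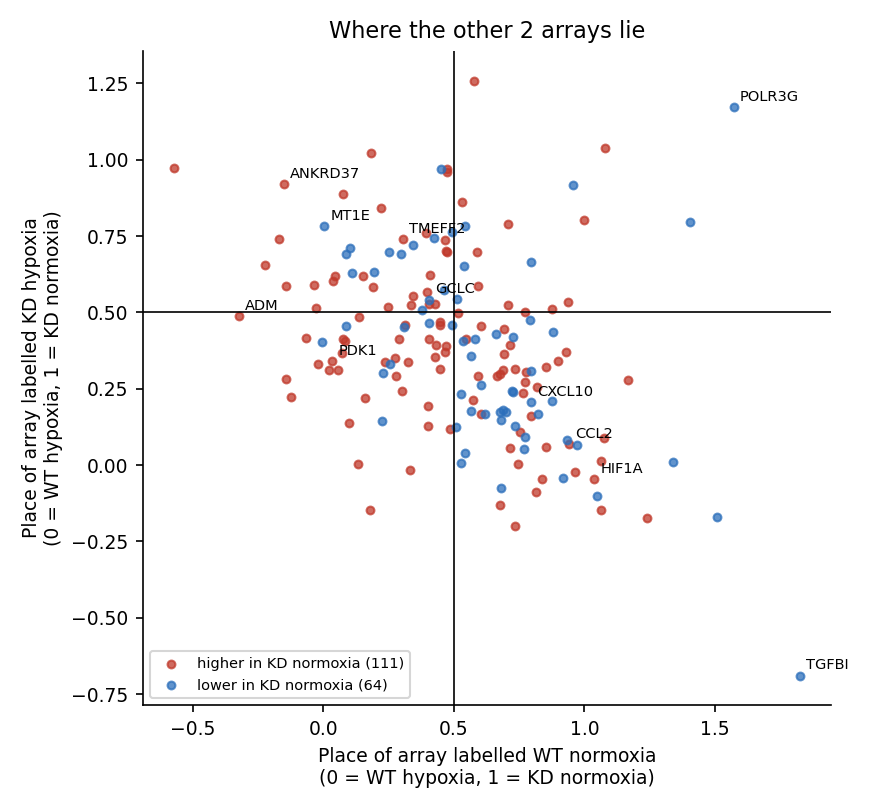
Each point is 1 of the 175 genes at least 2-fold different and above the floor in both compared arrays; the axes give where the arrays labelled WT normoxia (x) and KD hypoxia (y) lie on a log2 scale on which WT hypoxia is 0 and KD normoxia is 1, with lines at the mean of the pair. HIF1A and CCL2 lie lower right (oxygen label), TMEFF2 and MT1E upper left (genotype label), PDK1 lower left (KD normoxia apart) and POLR3G upper right (WT hypoxia apart).

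Genes of glutathione synthesis and of NRF2, a regulator of antioxidant genes, were mostly lower in the array labelled KD normoxia. Of 23 measured members 19 were lower and 4 higher (median -0.29, 18 above the floor in both arrays). After GCLC followed the quinone reductase NQO1 (-1.26), the thioredoxin reductase TXNRD1, with 3088 against 6181, and the glutathione reductase GSR (-0.98). NQO1 read 6025 in WT normoxia, 2703 in KD normoxia, 6496 in WT hypoxia and 3541 in KD hypoxia, so that both arrays labelled KD were low. KD normoxia was the lowest of the 4 arrays for 13 of the 20 that reached the floor, against 31.1% of all genes. Of 8 metallothionein and zinc genes (median -0.02) MT1E was the one that differed by 2-fold, while MT2A differed by -0.26. Among 15 heat shock genes the median was 0.09, with the small heat shock protein HSPB1 higher by 1.39 and ZFAND2A lower.

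Chemokines and NF-kappaB genes were mostly higher, with 25 of 37 higher and 12 lower (median 0.47). Only 15 of the 37 reached the floor in both arrays, where the median was 0.66. Besides CCL2 and CCL17, PTGS2, which makes prostaglandins, read 3330, 6431, 2390 and 4023 in the order of arrays used above (1.42). CXCL10 was the member furthest in the opposite direction. Interferon-stimulated genes were divided, with 17 higher and 19 lower of 36 (median -0.01), and besides IDO1 and ISG20 no member differed by 2-fold in its brightest probe set. Above the floor in both arrays PSMB9 (0.69) and DDX60 (0.61) were the next largest. Another DDX60 probe set read 223 in KD normoxia and, below the floor, 24.45 in WT hypoxia.

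Adhesion genes differed singly. In the list of desmosome, hemidesmosome and integrin genes 16 were higher and 13 lower (median 0.08), led by DSG3, ITGA6 (1389, 1276, 331 and 337 in the same order of arrays) and LAMA3, a laminin chain (1.21). Of 27 tight and adherens junction genes 0 reached 2-fold in either direction, with CLDN3, a claudin, at 0.92 and TJP1, a scaffold protein of the junction, at 0.57. For the epithelial-mesenchymal genes the median was -0.06, with SNAI2 and S100A4 higher while TGFBI, a matrix protein induced by TGF-beta, was lower (-1.44). TGFBI read 20.4 in WT normoxia, 67.2 in KD normoxia, 210 in WT hypoxia and 435 in KD hypoxia. Among proteases and inhibitors the median was 0.14, and above the floor in both arrays MMP13 was followed by TIMP1 (0.64), PLAU (0.58) and MMP2 (0.47). TFPI2, a serine protease inhibitor chosen after its values were seen, read 155 in KD normoxia and, below the floor, 8.69 in WT hypoxia, while SPINK5 lay in the opposite direction.

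Cholesterol synthesis genes were higher almost throughout. Of 20 measured 19 were higher and 1 lower (median 0.42), and the 18 above the floor in both arrays were all higher, by 0.16 to 1.34. TM7SF2, a sterol reductase, was higher by 1.34, EBP, a sterol isomerase, by 1.01, FDFT1, squalene synthase, by 0.76 and INSIG1 by 0.60. KD normoxia was the highest of the 4 arrays for 14 of the 18 and WT hypoxia the lowest for 14, against the same 26.4% and 23.8% of all genes.

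Genes of growth were slightly lower in KD normoxia. For ribosome biogenesis 28 of 34 were lower and 6 higher (median -0.33), with NOB1, a nuclease of ribosome maturation, at -1.12, WDR74 at -0.61, WDR12 at -0.60 and RRP12 at -0.59. Of 28 genes of G2 and mitosis 23 were lower (median -0.21), led by the phosphatase CDC25C (-1.24), while NUF2 was higher by 0.55. S phase genes had 25 of 32 lower (median -0.17), with CCNE1, cyclin E1, at -0.71 and UHRF1 at 0.89. Except for NOB1 and CDC25C, no member of these 3 lists reached 2-fold in its brightest probe set. Of all 15115 genes 7962 were lower, and of the 9834 that reached the floor 0.997% were lower by at least 2-fold. Nuclear genes of oxidative phosphorylation (median -0.05, 17 of 30 lower) were near the median of all genes. So were genes of the unfolded protein and ATF4 responses (-0.10) and of glycogen metabolism (-0.04). In their brightest probe sets 0 members of the latter 3 lists reached 2-fold. UGP2, which makes UDP-glucose for glycogen, was the largest of these at 0.82. A dimmer UGP2 probe set, at 958 in KD normoxia and 440 in WT hypoxia, was higher by 1.10.

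**Figure D5:**
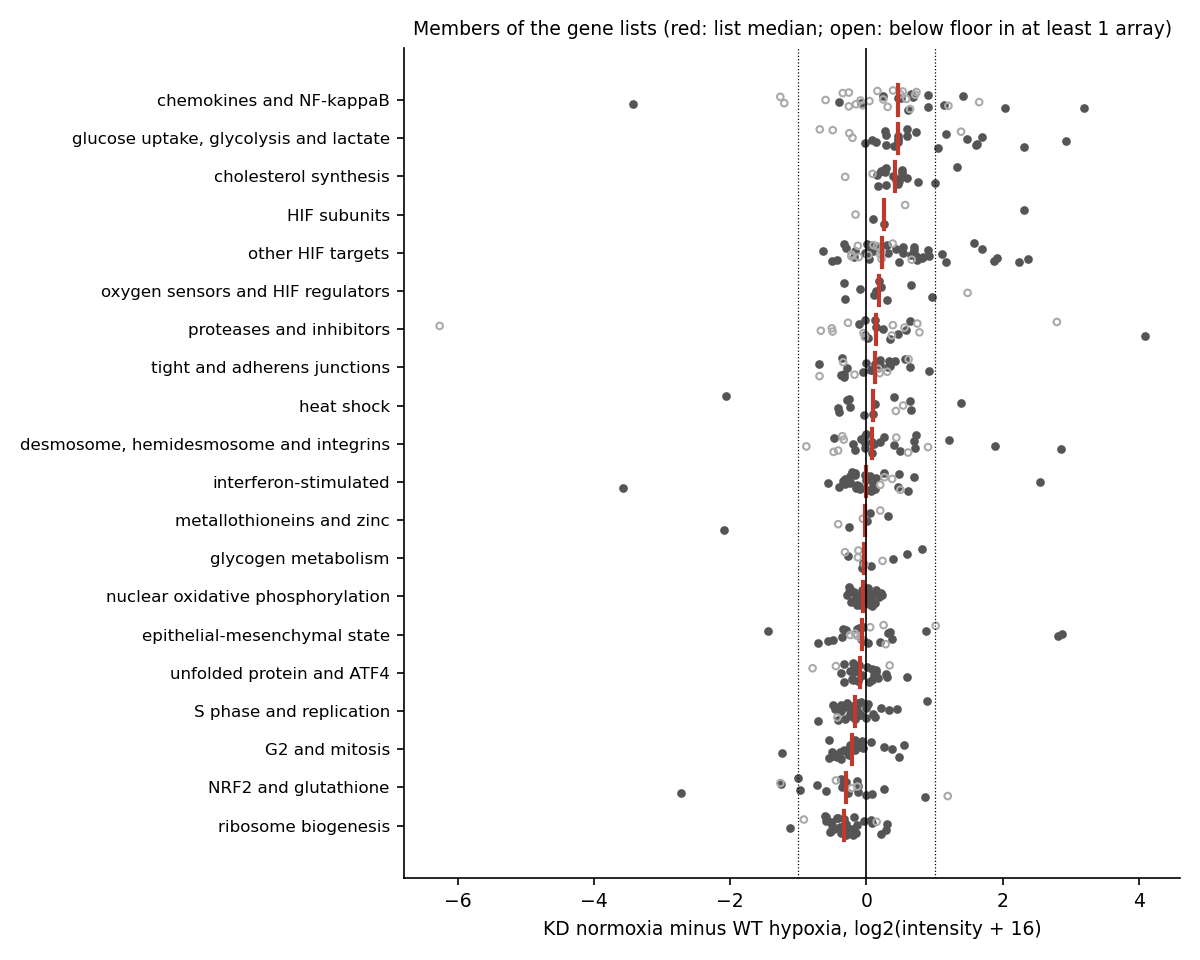
Difference between the compared pair in log2 (x axis) for each measured member of 20 gene lists (y axis), filled where the gene reached the floor in both arrays and open where it did not; red bars are list medians over all measured members and dotted lines mark 2-fold. Medians run from -0.33 for ribosome biogenesis to 0.47 for chemokines and NF-kappaB.

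This contrast was also fitted over all 4 arrays with limma, with 1 term for genotype and 1 for oxygen label, in which the difference of the labels' effects equals the difference between the compared pair. It leaves 1 residual degree of freedom and takes any dependence of the oxygen response on genotype as error, and its p-values do not measure the spread between cultures. At an adjusted p of 0.05, limma with an intensity trend called 571 genes higher and 607 lower (5.81% and 6.17% of 9834). In that limma fit HIF1A had a standard error of 0.11 and an adjusted p of 7.15e-06, CCL2 an adjusted p of 7.15e-06, PDK1 of 0.00455 and ADM of 0.015. By list, 11 of 23 tested glycolysis genes were called higher and 0 lower, 17 of 42 other HIF targets higher and 1 lower, 9 of 18 cholesterol genes higher and 0 lower, and 11 of 20 NRF2 and glutathione genes lower and 1 higher. These calls rest on the trend. Without it limma called 0 genes higher and 1 lower, SPINK5, with 2145 genes at an unadjusted p under 0.05, and without the floor it called 26 and 13.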

How the data were processed

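The study measured RNA of 4 MDCKII cultures on Affymetrix arrays, and the authors deposited 1 linear intensity per probe set, made in a way not stated in the sources used here. Trimmed means (2% left out at each end) ran from 310.5 to 314.9, and from 1065 to 1129 values per array were exactly 1. Of 42924 probe sets 29254 had 1 gene symbol in the platform annotation, 439 several and 13231 none; 27680 matched the RefSeq gene table through gene IDs. Each of the 15115 genes was represented by its probe set of highest mean.

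Differences of log2(intensity + 16), which understate changes of dim genes, were computed in Python 3.11.15. The additive model used limma 3.58.1 (eBayes with trend, Benjamini-Hochberg, 8.1 prior degrees of freedom) in R 4.3.3 and was tested on simulated data. With 1 array per group the number of arrays limits the precision.

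The compared pair, the 24 gene lists and the rules were chosen with earlier results of these data known. Named were HIF1A, the 12 largest differences per direction above the floor in both arrays (placeholder symbols left out), 4 genes per direction below the floor in 1 array, any member of the HIF, sensor and glycolysis lists, 4 members per other list with any 2-fold member opposite to its median, and 3 genes per place and direction. Other genes given by name beside a count of places were chosen after their values were seen. Alternatives were other scalings, pseudocounts, floors, probe set summaries, fold thresholds and limma settings.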

Additional observations from a re-analysis of the deposited data

Results flagged for a closer look

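Probe sets with no gene name entered no comparison. Of 6424 such probe sets that reached the floor, 133 exceeded the array labelled WT hypoxia by at least 2-fold in KD normoxia and 153 lay below it by at least 2-fold. Above the floor in both arrays were 5335 of them, with 79 higher and 98 lower. Their genes are not known here, and no group has enough arrays for a search for outlying samples.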

How the results depend on the processing

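No paired analysis was possible because each label has 1 array and the labels carry no replicate number. The counts of 162 higher and 98 lower genes became 92 and 43 with a pseudocount of 64, 101 and 51 when the floor was the 75th percentile of all values and 48 and 13 with a 3-fold threshold. The lower count became 173 with a pseudocount of 1 and 64 with both arrays at the floor. Quantile scaling, median centring and cyclic loess left both counts within 1.5 times, and shifted the median of all genes by less than 0.1. Of 168 list medians under alternatives 167 stayed within the 95% order-statistic interval of the list's median. The exception was the chemokine and NF-kappaB list at 0.66 over members above the floor. The interval comes from the spread between members and is wide for short lists, so it can hold medians that moved or changed sign. Heat shock went from 0.09 to -0.04 over members above the floor, and glycolysis from 0.46 to 0.68 with the median over probe sets. The sign was lost with the median over probe sets for UGT1A6 (0.006) and IQGAP1 (-0.22). Of 408 settings of the 68 named genes at least 2-fold different, 18 fell under 2-fold, in 15 genes. With the median over probe sets these were IGFBP4 (0.46), POLR3G (-0.41), FSD1L (-0.85), SCUBE3 (-0.46), CCDC32 (-0.53), FBLIM1 (0.87), EMP1 (0.71), ATG4B (-0.54), PFKFB3 (0.62), ZNF395 (0.63) and EBP (0.80). With a pseudocount of 64 they were ADAMDEC1, EGLN3, SLC16A3, INSIG2, EBP and EMP1 (from 0.88 to 0.98 in size), and with a pseudocount of 1 EMP1 (0.16). Limma calls were 972 higher and 938 lower with quantile scaling, 26 and 13 without the floor and 0 and 1 without the trend. The alternatives for the places of the other arrays were chosen after the data were seen. With a 3-fold threshold 17.1% of higher genes followed the genotype label and for 2.86% WT hypoxia stood apart. With a floor at the 75th percentile 67.9% of lower genes followed the oxygen label and for 0.0% WT hypoxia stood apart. Below the floor in 1 array were 51 of the higher and 34 of the lower genes, whose sizes are not measured.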

Other observations

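AXIN2, a scaffold of the beta-catenin destruction complex and a target of that pathway, read 104 in WT normoxia, 76.2 in KD normoxia, 223 in WT hypoxia and 174 in KD hypoxia, a difference of -1.37 in the compared pair. ZNRF3, which removes Wnt receptors from the surface, read 184, 64.9, 206 and 92.5. AXIN2 followed the oxygen label and ZNRF3 the genotype label, and AXIN2 was chosen after its values were seen.

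SOCS1, a suppressor of cytokine signalling, had a value of 417 under the label WT hypoxia and was listed at 1 under the other 3 labels, so its fold is not measured. POLR3G, a subunit of RNA polymerase III, read 190 in KD normoxia and 733 in WT hypoxia (-1.86) in 1 probe set and 267 and 121 (1.05) in another, so its direction is not settled. CCDC32 was lower by 1.37 in 1 probe set and differed by 0.30 in another.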
